A study of Homo sapiens with 118 samples.

Results

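The comparison set HepaRG cells exposed to the highest concentration of panobinostat against HepaRG cells exposed to the highest concentration of valproic acid. HepaRG is an established human hepatoma-derived cell line, used here in its differentiated, hepatocyte-like state. The 6 libraries, 3 for each chemical, were taken by their group labels from 118 libraries that cover 8 histone deacetylase inhibitors at 5 concentrations each, named C1 (lowest) to C5 (highest). All 6 lay on the plate marked H, and replicates 1, 2 and 3 of each chemical came from the same 3 batches of HepaRG cells. Exposure lasted 72 h, the chemical being renewed each day. Transcripts in the lysates were counted by TempO-Seq, an assay that ligates neighbouring detector probes on their target RNA and sequences the product. Panobinostat C5 was 0.084 µM. The dose label of valproic acid C5 reads 3038, and the treatment protocol gives 3.038 µM for it, so its unit could not be settled. The concentrations of the chemicals differed on either reading, and chemical and concentration cannot be told apart in this comparison. Solvent-control libraries were not used here, and changes of a chemical are given against its own C1.

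Histone deacetylases remove acetyl groups from lysines of histones and of many other proteins, and their inhibition raises acetylation and changes the transcription of many genes in both directions. Panobinostat is a hydroxamate that binds the zinc of the enzyme pocket and inhibits most zinc-dependent deacetylases at low concentrations. Valproic acid, used as an anticonvulsant, is a branched fatty acid that inhibits mainly the class I enzymes and needs far higher concentrations to do so. In hepatocytes, fatty acid oxidation is governed largely by the nuclear receptor PPARA, and CYP3A expression by the nuclear receptor PXR. The question that the comparison addresses is how far the expression profiles of cells under these unlike inhibitors differ.

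The proximal promoters of 4 genes are shown because these genes were called different between the chemicals under 14 or 15 of 15 alternative settings. They are examples of the genes that met this mark, PLIN4 being another. S100A8 and S100A9 encode the calcium-binding proteins that form calprotectin, and both were higher under panobinostat. PDK4 encodes the kinase that switches off pyruvate dehydrogenase when fat is burned, PLIN2 encodes a coat protein of lipid droplets, and both were higher under valproic acid. Each line gives the 250 bases before the annotated start, 5′ to 3′ on the gene's strand, from RefSeq on GRCh38.p14. Capitals mark TATAAA and GGGCGG on either strand.
S100A8 (chr1:153391074-153391323, minus strand): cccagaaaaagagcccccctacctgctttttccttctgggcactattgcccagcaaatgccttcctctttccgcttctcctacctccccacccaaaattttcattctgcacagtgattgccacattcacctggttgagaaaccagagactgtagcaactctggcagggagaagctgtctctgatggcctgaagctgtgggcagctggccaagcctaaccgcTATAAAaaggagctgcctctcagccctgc
S100A9 (chr1:153357604-153357853, plus strand): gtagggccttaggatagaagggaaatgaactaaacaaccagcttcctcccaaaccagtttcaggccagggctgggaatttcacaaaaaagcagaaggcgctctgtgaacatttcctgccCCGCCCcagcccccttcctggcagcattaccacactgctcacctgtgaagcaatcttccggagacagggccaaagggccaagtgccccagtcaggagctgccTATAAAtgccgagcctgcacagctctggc
PDK4 (chr7:95596517-95596766, minus strand): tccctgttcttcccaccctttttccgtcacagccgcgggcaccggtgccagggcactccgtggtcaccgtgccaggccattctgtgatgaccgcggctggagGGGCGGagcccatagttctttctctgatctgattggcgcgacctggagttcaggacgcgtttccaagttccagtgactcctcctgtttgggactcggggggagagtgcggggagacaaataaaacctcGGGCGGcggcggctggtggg
PLIN2 (chr9:19127493-19127742, minus strand): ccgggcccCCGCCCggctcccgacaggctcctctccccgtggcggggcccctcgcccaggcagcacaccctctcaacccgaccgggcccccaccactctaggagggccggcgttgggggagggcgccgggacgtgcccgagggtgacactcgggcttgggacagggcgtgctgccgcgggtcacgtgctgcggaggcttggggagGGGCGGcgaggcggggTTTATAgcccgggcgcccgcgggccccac
For S100A8, RefSeq lists 3 windows, and the one that holds TATAAA on the gene's strand is shown. TATAAA began 29 bases before the start on the gene's strand of S100A8 and S100A9, and the same 29 bases before the start, but on the other strand, in PLIN2. GGGCGG occurred 2 times in PDK4, 2 times in PLIN2 and 1 time in S100A9, and was not found in the S100A8 window. AGGTCA, a core element bound by many nuclear receptors, was in none of the 4 windows. Of all 35116 promoter windows of this length, 10.7% held TATAAA, 42.6% held GGGCGG and 12.1% held AGGTCA, counted on both strands. Of the 33 features called in the comparison, 30 belonged to a gene with a window, and 9 of these genes held TATAAA, 14 held GGGCGG and 3 held AGGTCA in any of their windows. Among 9383 tested genes with a window the shares were 8.84%, 72.1% and 12.6%. The matches describe letters in these windows and were not tested as sites.

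The 6 libraries held 3249466 to 4457563 counts each, and 12827 to 13441 features, each a detector probe, reached at least 5 counts. Levels are in CPM, which are counts scaled to a common library size. They compare a feature between libraries, not with another feature. Defining hepatocyte markers were present, with all 13 of the list over 10 counts in the library where each was highest. Some were near the floor. SLC10A1 was at 0 to 1.68 CPM under panobinostat and 0.24 to 2.95 CPM under valproic acid, and AHSG at 0.82 to 5.09 and 0 to 3.37 CPM. The summed level of the 13 markers was 21412 to 28289 CPM under panobinostat and 15377 to 20322 CPM under valproic acid. In the C1 libraries of both chemicals this sum was 40327 to 52097 CPM. ALB and TTR were its largest members at C5. In bulk lysates, fewer cells of a type and less RNA per cell cannot be told apart. Of the markers of other cell types, EPCAM, CFTR, CDH5, PTPRC and HBB had 0 counts. The summed cholangiocyte and progenitor markers lay at 139.7 to 152 CPM under panobinostat and 121 to 139 CPM under valproic acid. The sums of the mesenchymal markers were 159 to 224 and 205 to 231 CPM, and those of the endothelial and blood markers 37.0 to 55.8 and 23.0 to 36.7 CPM. The part of these shifts in the gene differences was not tested. Among the libraries that entered the fit, valproic acid C4 replicate 3 stood apart, with correlations of 0.879 and 0.921 to its group mates against 0.948 to 0.965 in the other pairs within groups.

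Cells under the top concentrations of both chemicals had similar profiles. The log2 expression of panobinostat and valproic acid libraries correlated at 0.942 to 0.951 across features, little below the 0.95 to 0.953 among libraries of one chemical and above the 0.896 to 0.922 between C5 and C1 of one chemical. In a fit of the 18 libraries of both chemicals at C1, C4 and C5, 33 of 13024 features (0.253%) were called different, which means a fold of at least 1.5 and an adjusted p under 0.05 by edgeR's quasi-likelihood test with Benjamini-Hochberg adjustment. Panobinostat was higher in 17 (0.131%) and valproic acid in 16 (0.123%). In all 33 the 3 libraries of one chemical lay wholly above the 3 of the other, as they did in 2185 features (16.8%) of all tested. The direction was the same in each of the 3 batches, which follows from that separation and is not separate evidence. The median standard error of a feature was 0.31 and its 95% interval reached a median of 0.65 to either side on the log2 scale. This interval is not adjusted for the number of features. The largest unadjusted p of a called feature was 0.000116 (TAT, edgeR), so differences well beyond that reach could also go uncalled. The number of calls depended on the library that stood apart. Without valproic acid C4 replicate 3, which is not part of the comparison but shares its estimate of spread, 107 of 13396 features (0.799%) were called, 59 (0.44%) higher and 48 (0.358%) lower in panobinostat, and all 33 were among them. In a fit of the 6 C5 libraries alone, 114 of 11821 (0.964%) were called, again with all 33 among them. With replicate 1 of every group left out 3 features were called, without replicate 2 there were 5, and leaving out single C5 libraries gave 15 to 24.

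**Figure D1:**
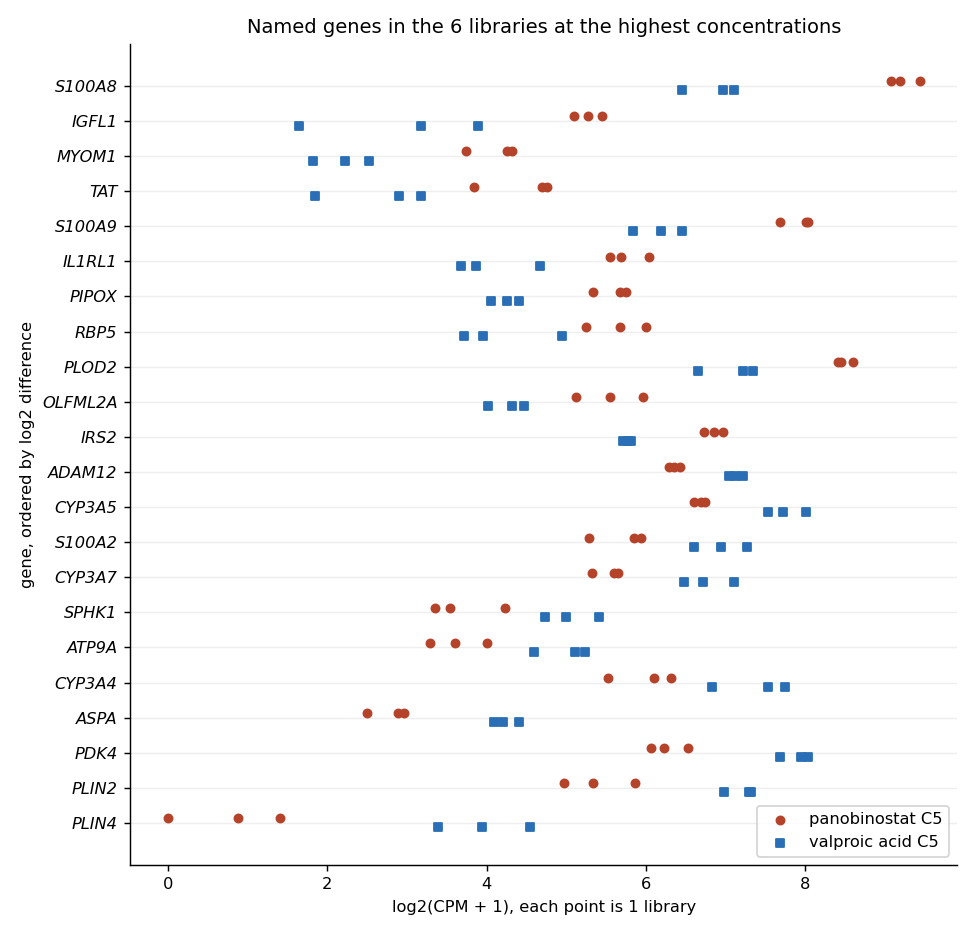
Level, as log2(CPM + 1), of 22 of the genes with the largest called differences, ordered by that difference, with 1 point for each of the 3 panobinostat C5 libraries (circles) and 3 valproic acid C5 libraries (squares). Only features whose groups did not overlap could be chosen. The points of one chemical therefore lie wholly on one side of those of the other in each of the 22 genes.

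S100A8 had the lowest adjusted p of all features tested. It measured 580, 693 and 541 CPM in panobinostat replicates 1, 2 and 3 and 124, 136 and 86.6 CPM in valproic acid, a log2 difference, panobinostat minus valproic acid here and below, of 2.38 (SE 0.185, adjusted p = 1.55e-08, edgeR). Every panobinostat library was several times above every valproic acid library. Its partner S100A9 measured 261, 257 and 204 CPM under panobinostat and 72.1, 86.5 and 56.1 CPM under valproic acid (log2 difference 1.74, SE 0.232, adjusted p = 0.000166), again with no overlap. Both genes are textbook products of neutrophils and monocytes. The leukocyte gene PTPRC was at 0 counts in these libraries, and the monocyte receptor CD14 lay between 2.80 and 7.17 CPM with the groups overlapping. The macrophage gene CD68 was at 24.6 to 40.2 CPM under panobinostat and 8.77 to 23.7 CPM under valproic acid. These groups did not overlap, but CD68 was not called (adjusted p = 0.569). At C4 it was called higher under panobinostat, by 2.11 (adjusted p = 0.00102, edgeR).

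Other genes higher in the panobinostat libraries encode proteins of varied roles. PLOD2, a lysyl hydroxylase of collagen, stood at 347, 386 and 341 CPM against 161, 99.5 and 148 CPM under valproic acid (log2 difference 1.39, SE 0.264, adjusted p = 0.0143). IRS2, the insulin receptor substrate of liver, stood at 105, 124 and 115 CPM against 55.2, 53.8 and 51.3 CPM (1.09, SE 0.183, adjusted p = 0.00317), with little spread in either group. IL1RL1, the receptor for the alarmin IL-33, had 45.6, 64.5 and 50.4 CPM against 11.8, 24.4 and 13.5 CPM (1.68, SE 0.292, adjusted p = 0.00489). The secreted factor IGFL1 differed by 2.25 (SE 0.467, adjusted p = 0.0314), the sarcomere protein gene MYOM1 by 2.17 (SE 0.455, adjusted p = 0.0323), and OLFML2A by 1.34 (SE 0.293, adjusted p = 0.0458), all at 61.4 CPM or below in every library. BIRC3, an inhibitor of apoptosis, and DKK1, a secreted inhibitor of Wnt signalling, were higher by 0.70 (adjusted p = 0.0106) and 0.98 (adjusted p = 0.0176). At C1 they were at 0.57 (adjusted p = 0.459) and 0.62 (adjusted p = 1), not called. At C4 they were at -0.02 (adjusted p = 0.943) and 0.42 (adjusted p = 0.174), so the difference in BIRC3 was not steady over the concentrations.

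Several enzymes of liver metabolism were also higher under panobinostat. TAT and HPD, the first steps of tyrosine breakdown, were higher by 1.89 (SE 0.416, adjusted p = 0.0459) and 0.87 (adjusted p = 0.0111). PIPOX, a peroxisomal oxidase of sarcosine and pipecolic acid, stood at 52.9, 50.2 and 39.5 CPM against 15.6, 20.1 and 18.1 CPM (1.40, SE 0.234, adjusted p = 0.00317). RBP5, a retinol-binding protein, was higher by 1.39 (SE 0.294, adjusted p = 0.0323). The class I alcohol dehydrogenases ADH1A and ADH1B were higher by 1.09 (adjusted p = 0.0286) and 1.07 (adjusted p = 0.0208). These paralogs are nearly identical in sequence, and probes may not have kept them apart. The summed hepatocyte markers were also higher under panobinostat, with no overlap at C5. The sum weighs abundant members such as ALB and TTR most, and in members such as HNF4A, SLC10A1 and FABP1 the chemicals overlapped. The part of the hepatocyte markers in these differences was not tested.

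Genes of fat handling led those higher under valproic acid. PDK4 measured 204, 262 and 245 CPM under valproic acid and 73.9, 90.9 and 66.0 CPM under panobinostat, a log2 difference of -1.63 (SE 0.176, adjusted p = 8.88e-06, edgeR). PLIN2 measured 126, 158 and 156 CPM under valproic acid and 39.5, 57.2 and 30.4 CPM under panobinostat (-1.79, SE 0.22, adjusted p = 6.5e-05). For both genes the lowest valproic acid library lay far above the highest panobinostat library. PLIN4, another lipid droplet coat protein, had 14.3, 9.48 and 22.3 CPM under valproic acid and 0.84, 0 and 1.64 CPM under panobinostat (fitted difference -4.21, SE 0.645, adjusted p = 0.00132), where the low counts leave the size of the difference poorly fixed. ACSL1, which activates fatty acids by binding them to coenzyme A, stood at 392, 520 and 434 CPM against 252, 280 and 271 CPM (-0.75, adjusted p = 0.0458), and at C1 it stood at -0.64 (adjusted p = 0.755).

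The list of PPARA targets and fatty acid oxidation genes had 31 features tested, of which 3, PDK4 and ACSL1 among them, were called higher under valproic acid and 0 under panobinostat, against 0.123% and 0.131% of all features. The median log2 difference of the list was -0.45, against -0.01 over all features, and 5 of the 31 were above 0. At an unadjusted p under 0.05, 15 features were higher under valproic acid and 1 (CYP4A11) under panobinostat, while over all features these shares were 4.46% and 3.89%. Without valproic acid C4 replicate 3 the calls were 7 and 0, with ANGPTL4, CREB3L3, SLC25A20 and ACAA2 added. ANGPTL4, a secreted inhibitor of lipoprotein lipase, was at 10.3, 11.1 and 3.10 CPM under valproic acid and at 1.12, 0.48 and 0 CPM under panobinostat (adjusted p = 0.0973, and 0.029 without that library). The liver transcription factor gene CREB3L3 stood at 55.0, 56.2 and 55.0 CPM against 30.0, 18.7 and 25.5 CPM (-1.17, adjusted p = 0.0768, and 0.00926 without that library). Not every member ran this way. EHHADH, an enzyme of peroxisomal beta-oxidation, differed by 0.16 (adjusted p = 0.885), and the receptor gene PPARA itself by -0.72 and -0.07 at its 2 probes (adjusted p = 0.519 and 0.975). CYP4A11 was at or under 3 counts in each valproic acid library and had 1.12, 0 and 1.10 CPM under panobinostat. At the lowest concentrations the median of the list was -0.23, with 0 calls, and the median difference between the C5 against C1 changes was -0.22. Against its own C1, panobinostat raised 0 and lowered 13 of the 31 features (7.89% and 10.1% of all features), with a median change of -0.68. Valproic acid raised 1 and lowered 5 (4.98% and 6.48% of all), with a median change of -0.23. The list as a whole was thus not raised under valproic acid.

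**Figure D2:**
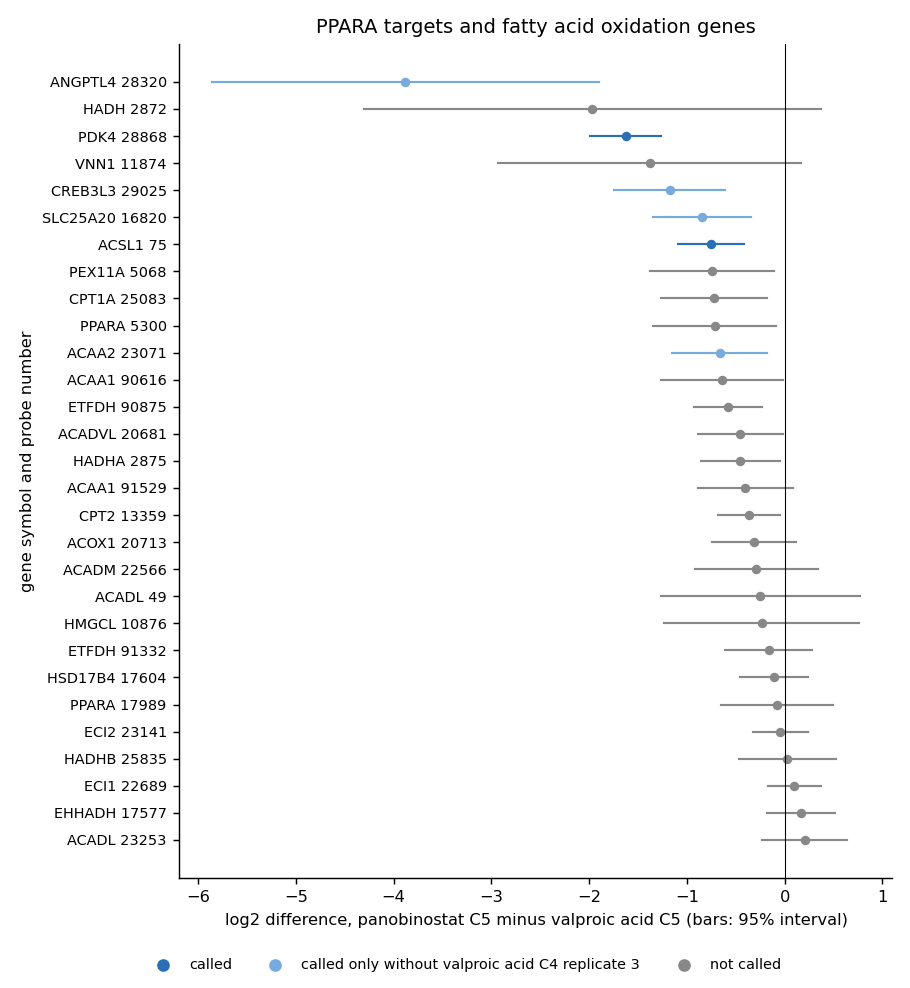
Log2 difference, panobinostat C5 minus valproic acid C5, with its 95% interval for 29 of the 31 tested features of PPARA targets and fatty acid oxidation. CYP4A11, whose valproic acid libraries are at the floor, and a feature not reported here are left out. Most points lie left of 0, where valproic acid is higher, PDK4 and ACSL1 being the called features shown.

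Of 29 features of lipid droplet, lipogenesis and triglyceride genes 2 were called, PLIN4 and PLIN2, both higher under valproic acid, against 0.123% of all features. The median of the list was 0.05, and 15 of 29 features were above 0. Cholesterol synthesis, with 25 features, had 0 calls and a median of -0.18, its brightest probe being that for the sterol oxidase MSMO1 (-0.18).

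The CYP3A genes and UGT1A1, which belong to the list of CAR and PXR targets, were called higher under valproic acid, while the list as a whole ran in both directions. CYP3A4, the chief drug-oxidising cytochrome of adult liver, measured 214, 183 and 113 CPM under valproic acid and 78.9, 67.6 and 44.9 CPM under panobinostat (log2 difference -1.42, SE 0.221, adjusted p = 0.00147, edgeR). CYP3A5 stood at 210, 256 and 185 CPM against 106, 103 and 96.2 CPM (-1.10, SE 0.162, adjusted p = 0.000858), and CYP3A7, the fetal form, at 104, 137 and 88.0 CPM against 49.0, 47.5 and 39.2 CPM (-1.28, SE 0.237, adjusted p = 0.0106). The 3 genes share much of their sequence, so their probes may not be independent. Second probes of CYP3A4 and CYP3A5 gave -1.48 (adjusted p = 0.0916) and -0.74 (adjusted p = 0.224). UGT1A1, which conjugates bilirubin, stood at 839, 929 and 685 CPM against 529, 500 and 444 CPM (-0.74, adjusted p = 0.0206), and its second probe gave -0.83 (adjusted p = 0.155). UGT1A1 shares exons with the other genes of its locus. Of 30 features in the list of CAR and PXR targets these 4 were called, all higher under valproic acid, against 0.123% of all features in that direction and 0.131% in the other. The median of the list was -0.13, 13 of 30 features were above 0, and at an unadjusted p under 0.05 there were 11 higher under valproic acid and 5 under panobinostat (4.46% and 3.89% of all features). At C1, with no call, CYP3A4, CYP3A7, CYP3A5 and UGT1A1 already stood at -1.03, -0.90, -0.57 and -0.56 (lowest adjusted p = 0.449).

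Further genes higher under valproic acid belonged to no fixed list. S100A2, a calcium-binding relative of S100A8 and S100A9, measured 122, 96.4 and 153 CPM under valproic acid and 60.2, 38.1 and 56.7 CPM under panobinostat (log2 difference -1.27, SE 0.212, adjusted p = 0.00317), the opposite direction to its relatives. SPHK1, which makes the signalling lipid sphingosine phosphate, stood at 25.5, 41.7 and 31.0 CPM against 10.6, 9.21 and 17.8 CPM (-1.39, SE 0.291, adjusted p = 0.0323). ASPA, which splits acetylaspartate, differed by -1.59 (SE 0.326, adjusted p = 0.0282), the phospholipid flippase gene ATP9A by -1.42 (SE 0.278, adjusted p = 0.0183), and the metalloprotease gene ADAM12 by -0.79 (SE 0.173, adjusted p = 0.0458). NBPF3 and EMP3 differed by -2.16 (adjusted p = 0.0323) and -0.76 (adjusted p = 0.034). NBPF3 was at only 8.43, 9.00 and 11.3 CPM against 2.24, 1.70 and 2.47 CPM, and such low counts leave the size of its difference poorly fixed.

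Hepatocyte markers leaned towards panobinostat with few calls. Of 28 features, TAT was called higher under panobinostat (0.131% of all features) and CYP3A4 higher under valproic acid (0.123%). The median difference was 0.31 and 19 of 28 were above 0. At an unadjusted p under 0.05, 12 were higher under panobinostat and 2 under valproic acid, against 3.89% and 4.46% of all features. Albumin (ALB) stood at 11254, 10095 and 8171 CPM under panobinostat and at 7572, 5695 and 5943 CPM under valproic acid (log2 difference 0.61, adjusted p = 0.211, and 0.018 without valproic acid C4 replicate 3). APOB, the protein of very low density lipoprotein, stood at 1854, 1881 and 1724 CPM against 1264, 1313 and 1087 CPM (0.57, adjusted p = 0.0815, and 0.00191 without that library). In neither gene did the groups overlap. Against their own C1, both chemicals had lowered these markers. Panobinostat did so in 23 of 28 features (10.1% of all features), with a median change of -1.51, and valproic acid in 24 of 28 (6.48% of all), with a median change of -1.83.

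No deacetylase gene was called different between the chemicals. The 11 classical genes had 15 features tested, 0 of them called, with log2 differences from -0.89 (HDAC10) to 0.48 (one of the probes of HDAC6), a median of -0.02 and a lowest adjusted p of 0.527. HDAC1, HDAC8, HDAC11 and HDAC5 gave -0.37, -0.31, -0.22 and -0.18, HDAC3 and HDAC7 gave -0.02 and 0.04, and HDAC9 gave 0.23 and 0.45 at its 2 probes and HDAC4 0.41. HDAC2 was at 552, 607 and 570 CPM under panobinostat and 542, 573 and 534 CPM under valproic acid (0.06, SE 0.12), and it rose in both chemicals against C1, by 0.57 (adjusted p = 0.00122) and 0.56 (adjusted p = 0.00209). The brightest HDAC6 probe fell in both, with log2 changes of -0.88 (adjusted p = 1.2e-05) and -1.02 (adjusted p = 1.58e-06). Among genes often read as responses to deacetylase inhibition, 14 features, 0 were called and the median was -0.08. Against its own C1, panobinostat raised 2 and lowered 2 of the 14 (7.89% and 10.1% of all features). Valproic acid raised 2 and lowered 1 (4.98% and 6.48% of all). CDKN1A, also on this list, had at most 11 counts in any C5 library of the comparison and was not tested. DHRS2, a reductase gene induced by many such inhibitors, rose by 1.65 (adjusted p = 0.00123) in panobinostat and by 2.01 (adjusted p = 0.000262) in valproic acid, and differed by -0.11 between them (adjusted p = 0.97). Thymidylate synthase (TYMS) fell in both, with changes of -1.67 (adjusted p = 7.39e-09) and -1.05 (adjusted p = 1.21e-05).

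Metallothioneins, which bind zinc and copper, had 5 features tested and 0 called. MT2A, MT1E, MT1A, MT1M and MT1X differed by 0.20, 0.21, 0.21, 0.49 and 0.80, with a lowest adjusted p of 0.603. MT2A had risen in both chemicals, by 1.90 (adjusted p = 7.44e-07) under panobinostat and by 1.35 (adjusted p = 9.76e-05) under valproic acid.

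Among the other lists, the Wnt, Notch and hedgehog readouts had 1 call of 13 features, DKK1, higher under panobinostat (0.131% of all features), and a median of 0.08. The largest medians without a call were those of interferon-stimulated genes (18 features, -0.37), neuronal genes that REST silences in liver (9 features, -0.36) and cell cycle and mitosis genes (24 features, -0.26), all lower under panobinostat. Urea cycle (12 features), folate and methionine cycle (13), endoplasmic reticulum stress (21), mesenchymal (9) and tubulin genes (16) had 0 calls and medians of -0.12, -0.22, -0.14, -0.13 and -0.06. Bile acid (22), acute phase (22), cytokine (15), heat shock (19), NRF2 (21), p53 (35), actin (13), cholangiocyte (6) and endothelial and blood genes (4) had 0 calls and medians of 0.14, 0.22, 0.19, 0.06, 0.12, 0.02, 0.23, 0.22 and 0.08. The brightest members of these lists that were named by rule differed by amounts between -0.46 (the matrix proteoglycan LUM) and 0.78 (CD68), and IFI6 was at -0.11, the cytokine IL32 at 0.49, fibrinogen FGA at 0.23, MDM2 at 0.02 and the tubulin TUBA4A at 0.26. The secreted phosphoprotein SPP1 was at -0.09, the bile acid conjugating enzyme BAAT at 0.38, glutamine synthetase GLUL at 0.21 and cystathionine synthase CBS at -0.16. The chaperones CALR and HSPB1 were at -0.22 and -0.15, the neurotrophin BDNF at -0.36 and the calponin CNN3 at 0.30. None of these genes was called.

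The changes of each chemical against its own C1 were set beside the differences. Panobinostat changed 2345 features (18%), with 1028 (7.89%) higher and 1317 (10.1%) lower, and valproic acid 1492 (11.5%), with 648 (4.98%) higher and 844 (6.48%) lower. Both raised 444 features and both lowered 687, and 0 were called in opposite directions. The shared features made up 48.2% of the panobinostat calls and 75.8% of the valproic acid calls. The changes correlated at 0.697 across features (Spearman 0.651), and at 0.509, 0.454 and 0.511 when taken within batches 1, 2 and 3, with no library shared between the chemicals. Features are not independent replicates. Of the 1131 features called in both, the panobinostat change was the larger in 681. Under other settings a few features were called in opposite directions, chosen for mention after their values were seen. CACHD1 had changes of -1.94 in panobinostat and 1.59 in valproic acid with DESeq2, and fits on each chemical's own libraries added RBP5 (0.62 and -0.97) and PLIN4 (-3.04 and 1.15).

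**Figure D3:**
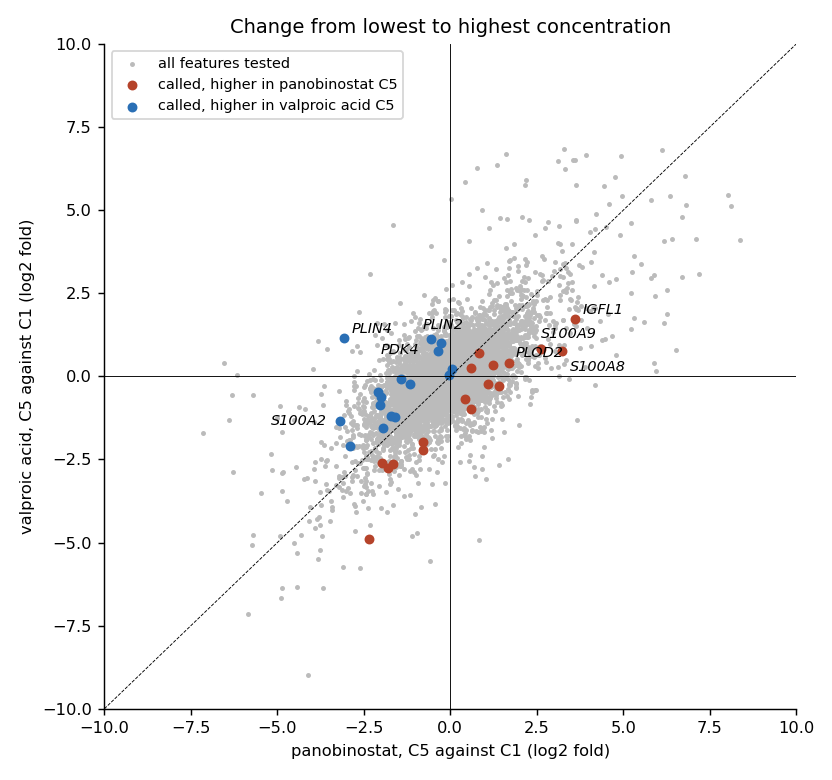
Log2 change from C1 to C5 in panobinostat (horizontal axis) against that in valproic acid (vertical axis), 1 point per tested feature (13024), with the 33 features that differed between the chemicals at C5 marked. The cloud runs along the diagonal (r = 0.697), and the marked genes lie to either side of it.

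The 33 genes fall into patterns when these changes, which share the C5 libraries with the comparison, are set beside them. Of the 17 higher under panobinostat, 4 (S100A8, S100A9, IGFL1 and BIRC3) rose under both chemicals and 5 (PLOD2, IRS2, IL1RL1, MYOM1 and DKK1) rose under panobinostat with no call under valproic acid. Another 5, PIPOX, HPD, ADH1A and ADH1B among them, fell under both, 2 (TAT and RBP5) were called only as lower under valproic acid, and OLFML2A was called in neither. Of the 16 higher under valproic acid, 6, CYP3A4, CYP3A5, CYP3A7, S100A2 and EMP3 among them, fell under both and 5 (PLIN4, ADAM12, ASPA, ATP9A and NBPF3) fell under panobinostat with no call under valproic acid. The remaining 5 were PDK4, PLIN2 and SPHK1, which rose under valproic acid with no call under panobinostat, and ACSL1 and UGT1A1, which were called in neither. S100A8 rose 9.45-fold under panobinostat and 1.69-fold under valproic acid, and S100A2 fell 9.13-fold and 2.55-fold. PDK4 rose 1.7-fold and PLIN2 1.99-fold under valproic acid.

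The test of unequal change, which takes each chemical's own C1 level off, called 3 features (0.023%). S100A8 rose more under panobinostat by 2.48 on the log2 scale (adjusted p = 7.45e-06, edgeR) and S100A9 by 1.80 (adjusted p = 0.0494). S100A2 fell more under panobinostat, with a difference of -1.84 (adjusted p = 0.00807). For the lipid genes the same test gave -1.11 for PDK4 (adjusted p = 0.19), -1.28 for PLIN2 (adjusted p = 0.288) and -4.21 for PLIN4 (adjusted p = 0.0659). Without valproic acid C4 replicate 3, 16 features (0.119%) passed, and PDK4 (adjusted p = 0.013), PLIN2 (0.0332), and PLIN4 (0.0118) were among them, as were PLOD2, APOB, EMP3, CYP4F2, AOX1, CASC1, ROS1 and ALDH3A1. With the batch as a block, 7 passed.

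The lowest and the second-highest concentrations show the pair of chemicals in libraries other than those compared at C5. These libraries are in the same fit, so they share its estimate of spread. At C1, 0 features (0%) were called with edgeR, 324 had an unadjusted p under 0.05, DESeq2 called 0, and the batch block 1. Signs at C1 matched those at C5 in 14 of the 17 and 11 of the 16 called features, with median differences of 0.24 and -0.50. At C4, 874 features (6.71%) were called, 510 (3.92%) higher and 364 (2.79%) lower in panobinostat, and 499 (3.72%) without valproic acid C4 replicate 3. Here the labels were 0.03963 µM for panobinostat and 2712.9 for valproic acid. Signs at C4 matched in 13 of 17 and 14 of 16, while 49.6% of all features were higher in panobinostat, and 18 of the 33 were called in the same direction and 0 in the other. PIPOX was higher under panobinostat by 1.41 (adjusted p = 0.000229) and S100A8 by 0.87 (adjusted p = 0.00301), while S100A9 stood at -0.14 (adjusted p = 0.758). PDK4 differed by -2.46 (adjusted p = 2.94e-09), PLIN2 by -2.05 (adjusted p = 8.11e-07) and UGT1A1 by -1.36 (adjusted p = 8.24e-07). S100A2 stood at 0.21 (adjusted p = 0.552), so it was not called a step below the top.

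**Figure D4:**
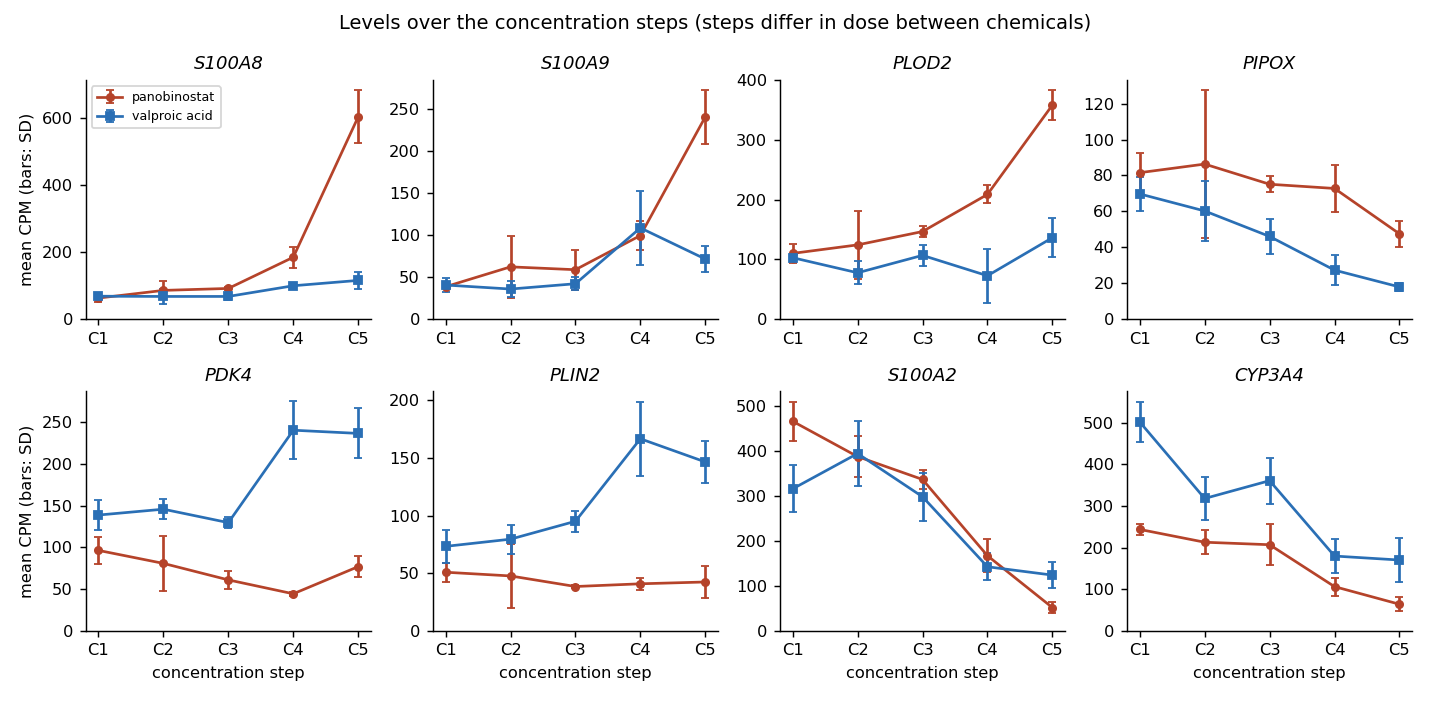
Mean CPM with SD over 3 libraries (2 at panobinostat C3) at each of the 5 concentrations, C1 to C5, of panobinostat and valproic acid for the genes named in the panels. S100A8 climbs to 604.5 CPM under panobinostat and to 116 CPM under valproic acid, and PDK4 reaches 237 CPM under valproic acid and stays at or under 96.4 CPM under panobinostat.

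Over the concentrations S100A8 under panobinostat had means of 63.0, 85.9, 91.8, 185 and 604.5 CPM from C1 to C5, with SDs of 10.4, 26.8, 5.38, 30.9 and 78.9 (n = 3, and 2 at C3). Under valproic acid S100A8 had 68.6, 67.8, 67.9, 99.8 and 116 CPM, with SDs from 4.71 to 26.0. The ranges of the chemicals overlapped at C1 and C2 and not from C3 on, where the means of S100A8 were 91.8 and 67.9 CPM. PDK4 had means of 139, 146, 130, 240.5 and 237 CPM under valproic acid and of 96.4, 80.8, 61.0, 44.4 and 76.9 CPM under panobinostat. PLIN2 had 73.3, 79.5, 95.1, 167 and 147 CPM under valproic acid and 50.8, 47.6, 38.4, 40.8 and 42.4 CPM under panobinostat. The C4 and C5 means of valproic acid differed by less than either SD for PDK4 (34.9 and 29.9), and for PLIN2 by less than the larger of its SDs (32.2 and 18.2). S100A2 fell under both chemicals, with means of 466, 387, 337, 167 and 51.7 CPM under panobinostat and of 316, 394, 298, 142 and 124 CPM under valproic acid.

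Set beside the other 6 inhibitors at their own C5, whose concentrations differ and of which scriptaid, tacedinaline and vorinostat lay on plate E, panobinostat and valproic acid took different places from gene to gene. Mean S100A8 was 1082 CPM in apicidin, 839 in vorinostat, 659 in tacedinaline, 604.5 in panobinostat, 424 in mocetinostat, 377 in scriptaid, 131 in trichostatin A and 116 in valproic acid. Valproic acid and trichostatin A, the lowest pair, differed by less than their SDs (26.0 and 47.8). This is an order of levels and not of changes. At C1 the means of S100A8 ran from 63.0 CPM in panobinostat to 328 CPM in mocetinostat, with trichostatin A at 256 CPM (SD 273). PDK4 was highest in scriptaid (510 ± 246 CPM, SD, n = 3), apicidin (253 ± 56.1) and valproic acid (237 ± 29.9), and between 71.6 and 115 CPM in the other inhibitors. PLIN2 was at 147 CPM in scriptaid and in valproic acid, and at 30.0 to 64.4 CPM in the others. These orders are descriptions, and the plate was not tested as a part of them.

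**Figure D5:**
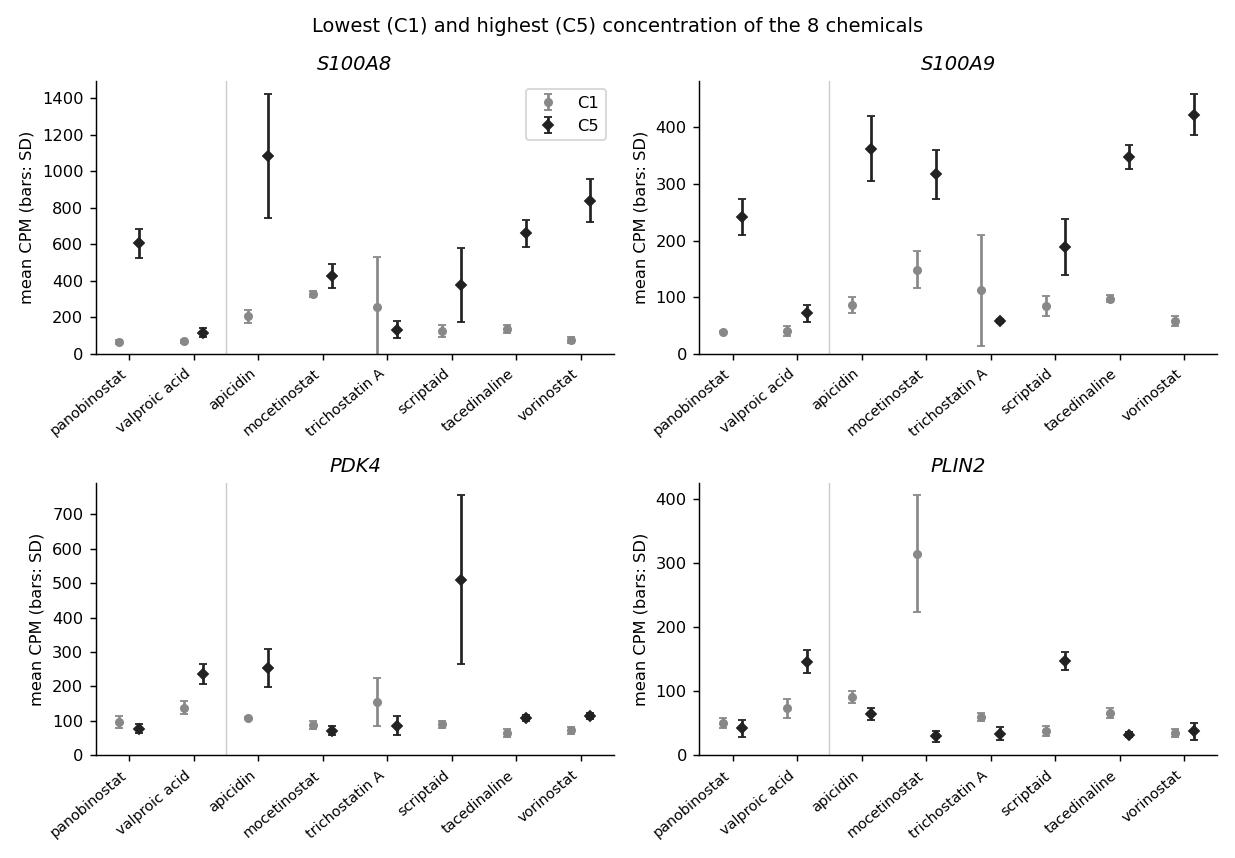
Mean CPM of S100A8, S100A9, PDK4 and PLIN2 at C1 (grey circles) and C5 (black diamonds) of the 8 inhibitors, with bars for the SD over 3 libraries, cut at 0, and concentrations that differ between inhibitors. At C5 S100A8 is 604.5 CPM in panobinostat and 116 CPM in valproic acid. For PDK4 valproic acid stands near apicidin, under scriptaid and above panobinostat, and for PLIN2 it stands with scriptaid above panobinostat.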

How the data were processed

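The authors deposited raw read counts per TempO-Seq detector probe, as whole numbers without normalisation. The submitters' processing notes name bcl2fastq 2.20.422, fastp 0.23.2, STAR 2.7.10b and DESeq2 1.38.0, and the genome build is not given in the sources used here. Of 22069 rows, 22068 were complete and 1 was left out. Groups came from the labels. The 18 libraries of panobinostat and valproic acid at C1, C4 and C5 (2819227 to 5123094 counts) were fitted in R 4.3.3 with edgeR 4.0.16 (filterByExpr, TMM scaling, quasi-likelihood F tests, Benjamini-Hochberg adjustment over all 13024 features). Standard errors are the log2 difference divided by the square root of F. DESeq2 1.42.0 was an alternative. The scripts were tested on simulated data. Replicate numbers pair the samples because the labels give them as HepaRG batches. Deviations of libraries from their group means correlated at 0.0376 (median of 45 pairs) within a batch and at -0.0175 (median of 90 pairs) between batches. For panobinostat C5 with valproic acid C5 they correlated at 0.0362, -0.0254 and 0.0753 in batches 1, 2 and 3. Deviations balance out within each group, which ties the medians to each other, so these values cannot decide whether the pairing holds. The members and the 26 gene lists (512 genes) were chosen with earlier results of these data known. Named genes were the 12 largest called differences in each direction among non-overlapping features with a higher mean of at least 10 CPM, up to 4 called members of each list or else its brightest, genes called in opposite directions (there were 0), and all deacetylases and metallothioneins. Other called genes, and ANGPTL4, CREB3L3, EHHADH, DHRS2, ALB and APOB, were named after their values were seen. Replicates are cultures of 3 HepaRG batches on 1 plate, and p-values measure only the spread between them. Reads carry no molecular identifiers, so that the floor of 3 counts covers counting error only. Promoters were read from RefSeq. Some genes that the rule names are not reported here.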

Additional observations from a re-analysis of the deposited data

Results flagged for a closer look

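The change from C1 to C5 differed between the chemicals in 3 genes by the test of the difference itself (edgeR, adjusted over all features). The panobinostat change minus the valproic acid change was 2.48 for S100A8 (adjusted p = 7.45e-06), 1.80 for S100A9 (adjusted p = 0.0494) and -1.84 for S100A2 (adjusted p = 0.00807). S100A8 and S100A9 rose under both chemicals and S100A2 fell under both, so these are differences in the size of a change and not in its direction.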

How the results depend on the processing

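The C5 difference was called in 33 features, in 34 with RLE scaling, in 91 without a low-count filter, in 77 with DESeq2, in 114 in the C5 libraries alone and in 26 at a fold of at least 2. Leaving out libraries gave 3 to 107. Without replicates 1, 2 and 3 of every group it was 3, 5 and 30, without panobinostat C5 replicates 1, 2 and 3 it was 20, 16 and 24, and without those of valproic acid C5 18, 15 and 20. The 107 came without valproic acid C4 replicate 3, an alternative chosen after seeing the data. All 33 kept their call under RLE, no filter, DESeq2, the C5 libraries alone, the block and without that library. Over 15 alternatives, 325 of 495 values stayed called, 170 lost the call and 0 changed sign. S100A8 and PDK4 stayed called in 15 of 15. The 0 calls at C1 became 4 without a filter and 9 in its own libraries, with 0 to 1 under leaving out. The 874 calls at C4 became 1346 without a filter and 145 in its own libraries, with 173 to 1463 under leaving out. Under leaving out, panobinostat's 2345 calls ran from 1019 to 2817 and valproic acid's 1492 from 571 to 1854. In their own libraries they became 2819 and 1883. The 3 unequal changes became 21 without a filter, 12 with DESeq2 and 36 in their own libraries, with 1 to 16 under leaving out. The cause of these shifts was not tested.

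With the replicate number as a block, since batches pair the samples, the C5 comparison had 41 calls, C1 1, C4 1036, panobinostat 2436, valproic acid 1566 and the unequal changes 7, and no call among the 33 was lost.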
